A study of Homo sapiens with 12 samples.

Results

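The 8 genes described here form a set of liver X receptor (LXR) and cholesterol efflux genes: NR1H2, NR1H3, ABCA1, ABCG1, MYLIP, APOE, LPCAT3 and SCARB1. They were picked by gene name and are 8 of the 25648 genes listed in the tables of the 12 libraries. All 8 were counted in every library and all 8 passed the filter on low counts. In RefSeq annotation of GRCh38.p14 the receptor gene NR1H2 lies on chromosome 19 (50376457 to 50383388) and NR1H3 on chromosome 11 (47248300 to 47269033). The transporter gene ABCA1 is on chromosome 9 (104781006 to 104928155) and ABCG1 on chromosome 21 (42199689 to 42297244). MYLIP is on chromosome 6 (16129086 to 16163887) and APOE on chromosome 19 (44905796 to 44909393). LPCAT3 (6976185 to 7018476) and SCARB1 (124776856 to 124863864) are both on chromosome 12, and all 8 are annotated as protein coding.

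LXRs are nuclear receptors that bind oxysterols, oxidised derivatives of cholesterol, and act on DNA as dimers with a retinoid X receptor (RXR). Without ligand the dimer recruits a corepressor complex that contains a histone deacetylase, and with ligand it exchanges that complex for coactivators. Their known targets send cholesterol out of the cell, limit its uptake and alter the fatty acids of membrane phospholipids, opposite in effect to the SREBP2 programme of cholesterol synthesis and uptake.

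The study sequenced polyadenylated RNA of 3 human cancer cell lines, MHCC97H (hepatocellular carcinoma), A549 (lung adenocarcinoma) and HCT116 (colorectal carcinoma). Cells had received trichostatin A (TSA, 1 µM), which inhibits histone deacetylases, or GSK126 (50 µM), which inhibits the histone methyltransferase EZH2, or S2101 (100 µM), which inhibits the histone demethylase LSD1, or were left untreated. Each line gave 1 library per condition, so a condition has 3 libraries of 3 different lines (n = 3). With condition and line as terms, p-values rest on the spread that these terms leave over in all 12 libraries, not on repeat cultures. In comparisons between lines, the 4 conditions of a line stand in for repeats. MHCC97H and A549 were kept in DMEM and HCT116 in RPMI, so an effect of the medium cannot be separated from one of the line; the labels state neither how long cells were treated nor what vehicle the untreated cells received.

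Libraries held 14468304 to 19061367 gene counts, and 3 reads, the limit that a count of 0 allows for counting error only, amounted to between 0.157 and 0.207 CPM (counts per library size). The A549 S2101 library stood apart: 56 genes with no read in untreated A549 and at least 50 reads under TSA had 8.10% of their TSA level there, against 1.02 to 3.94% for such genes in the other GSK126 and S2101 libraries. Whether TSA-treated material contributed to that library was not tested, and A549 values under S2101 are read with that limit. Among untreated libraries, 4 of 8 hepatocyte markers reached 1 CPM in MHCC97H (summed level 64.2 CPM, HNF4A highest at 52.0 CPM), with APOA2 and TTR at 0, but 5 of 7 intestinal markers did so too (summed level 1327 CPM, KRT20 highest). In A549, 1 of 6 alveolar markers reached 1 CPM and NKX2-1 and SFTPA1 had no read; in HCT116, 1 of 7 intestinal markers did (CDX2, 12.6 CPM) and CDX1 had no read. CPM are shares of a library, so a change in a gene and an opposite change in total RNA per cell cannot be told apart.

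On the mean of the untreated lines, SCARB1 was the most abundant of the 8 transcripts per length and ABCG1 the least. On the authors' RPKM scale (reads per kilobase of the longest transcript, scaled to library size), SCARB1, which encodes the HDL receptor SR-BI, averaged 60.6 ± 44.5 over the untreated lines (SD, n = 3). LPCAT3, an enzyme that places polyunsaturated fatty acids in phospholipids, followed at 23.1 ± 2.73 RPKM and NR1H2, the receptor LXRβ, at 21.98 ± 9.97 RPKM. ABCA1, which hands cholesterol to lipid-poor apolipoprotein A-I, had 5.22 ± 5.37 RPKM and NR1H3, the receptor LXRα, 5.10 ± 1.14 RPKM. APOE, the apolipoprotein of remnant lipoproteins, had 2.49 ± 2.54 RPKM, MYLIP, the ubiquitin ligase IDOL, 2.39 ± 0.695 RPKM and ABCG1, which exports cholesterol to HDL particles, 0.680 ± 0.419 RPKM. In untreated HCT116, however, ABCG1 (0.546 RPKM) exceeded ABCA1 (0.338 RPKM) and APOE (0.351 RPKM). Untreated SCARB1 (31.3 to 112 RPKM) did not overlap with LPCAT3 (20.1 to 25.3 RPKM), whereas LPCAT3 and NR1H2, ABCA1 and NR1H3, and APOE and MYLIP differed by less than their spread.

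NR1H2 exceeded NR1H3 per length in all 12 libraries, by an RPKM ratio of 1.68 to 12.5. The gap was narrow in HCT116 under every condition (1.68 to 1.99) and wider in MHCC97H (4.90 to 12.5) and A549 (5.63 to 9.57).

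**Figure D1:**
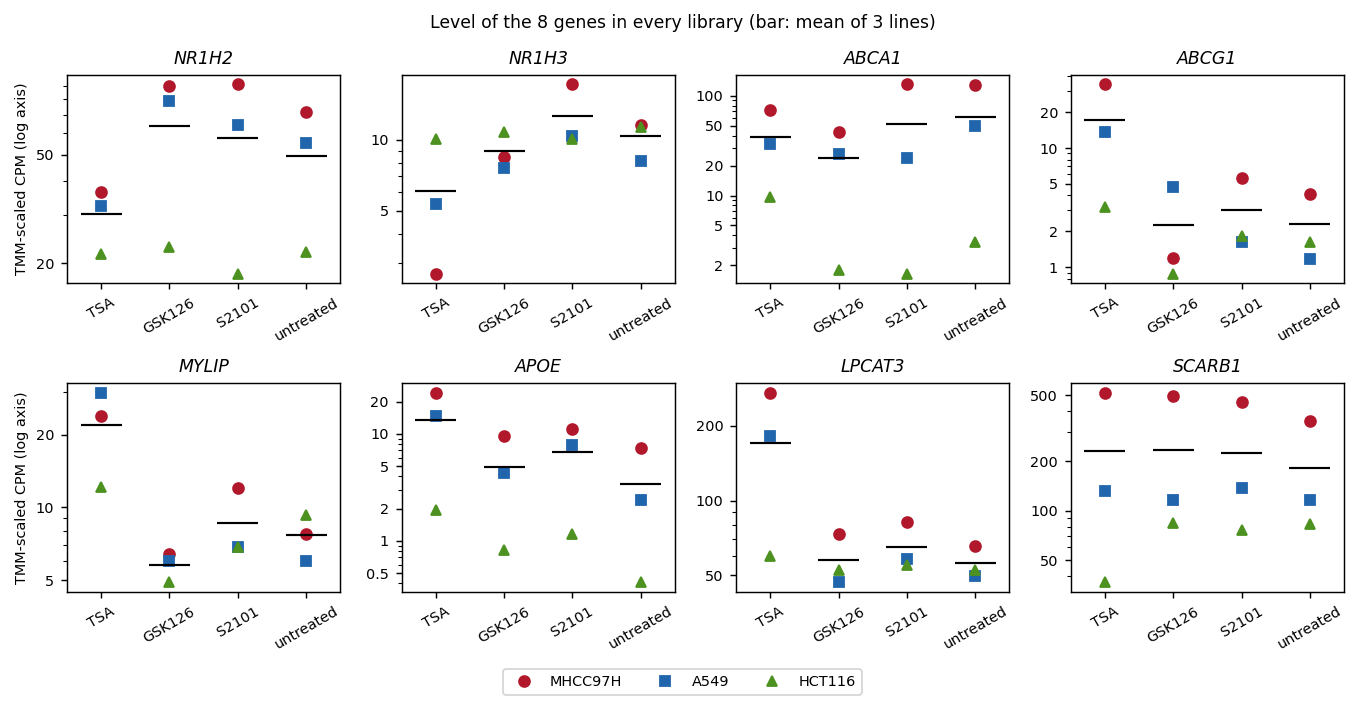
Level of each of the 8 genes in all 12 libraries, in TMM-scaled CPM on a log axis, by condition; symbols are the 3 cell lines and each bar is the mean of 3 lines. ABCG1, MYLIP, APOE and LPCAT3 have their highest libraries under TSA, and HCT116 (triangles) is lowest of the lines for ABCA1, APOE and SCARB1 in every condition.

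NR1H3 was lower under TSA in all 3 lines and NR1H2 in MHCC97H and A549, but neither passed the test. NR1H2 had 36.7, 32.6 and 21.7 CPM in TSA-treated MHCC97H, A549 and HCT116, against 72.1, 55.2 and 22.1 CPM in the untreated libraries. HCT116 was low with and without TSA, so the groups overlapped, and the direction in HCT116 turned with the scale (11.5 RPKM under TSA against 11.03 RPKM untreated). The fitted log2 change was -0.54 ± 0.27 (SE; adjusted p = 0.145). NR1H3 had 2.72, 5.36 and 10.1 CPM under TSA in the same order of lines, against 11.6, 8.14 and 11.4 CPM untreated. MHCC97H was thus the line with the least NR1H3 under TSA, and the log2 change over the lines was -0.81 ± 0.41 (adjusted p = 0.150). The NR1H3 difference in HCT116 was within counting error (168 reads under TSA, 194 untreated, 95% counting interval of the log2 ratio -0.476 to 0.136). Without HCT116, NR1H2 passed the test (log2 change -0.81, adjusted p = 0.0142) and NR1H3 did not (-1.20, adjusted p = 0.0797).

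The RefSeq promoter windows (GRCh38.p14, 250 bases before to 50 after an annotated start) are shown for 3 of the 4 genes that rose under TSA, MYLIP, LPCAT3 and APOE, and for ABCA1, which is the LXR target with the best known promoter element and did not pass the test. Capitals mark GC boxes (GGGCGG or its complement CCGCCC) and, in ABCA1, a match to the LXR element. The windows are chr9:104928106-104928405 (minus strand) for ABCA1, chr6:16128836-16129135 (plus) for MYLIP, chr12:7018427-7018726 (minus) for LPCAT3 and chr19:44905546-44905845 (plus) for APOE.
ABCA1: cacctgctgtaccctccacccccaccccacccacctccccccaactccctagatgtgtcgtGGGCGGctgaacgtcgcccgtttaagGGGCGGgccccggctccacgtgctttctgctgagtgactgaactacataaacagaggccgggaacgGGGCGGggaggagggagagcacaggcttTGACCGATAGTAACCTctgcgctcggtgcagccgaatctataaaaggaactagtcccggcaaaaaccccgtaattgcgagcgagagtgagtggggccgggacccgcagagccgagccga
MYLIP: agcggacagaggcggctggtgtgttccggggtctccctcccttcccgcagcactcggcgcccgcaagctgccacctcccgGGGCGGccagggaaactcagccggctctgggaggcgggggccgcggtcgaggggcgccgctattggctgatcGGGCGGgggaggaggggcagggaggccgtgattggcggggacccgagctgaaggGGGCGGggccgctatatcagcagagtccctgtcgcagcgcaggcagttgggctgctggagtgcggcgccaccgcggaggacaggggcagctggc
LPCAT3: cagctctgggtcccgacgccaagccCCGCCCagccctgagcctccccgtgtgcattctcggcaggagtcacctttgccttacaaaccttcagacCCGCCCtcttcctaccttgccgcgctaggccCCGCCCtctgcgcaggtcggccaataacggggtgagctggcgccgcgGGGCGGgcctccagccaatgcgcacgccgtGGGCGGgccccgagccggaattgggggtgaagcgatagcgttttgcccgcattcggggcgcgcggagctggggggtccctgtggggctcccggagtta
APOE: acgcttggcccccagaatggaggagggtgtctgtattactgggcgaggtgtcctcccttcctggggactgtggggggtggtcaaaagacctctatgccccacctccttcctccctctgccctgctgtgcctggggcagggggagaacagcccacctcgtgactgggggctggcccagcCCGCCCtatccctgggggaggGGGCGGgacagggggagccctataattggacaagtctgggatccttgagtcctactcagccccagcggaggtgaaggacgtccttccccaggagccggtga

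Windows matched 6 of the 8 genes by symbol (11 windows in all); ABCG1 and SCARB1 are named only. The LXR element was searched on both strands as a pair of AGGTCA in the same direction, 4 bases apart, with at most 2 mismatches in its 12 fixed bases. ABCA1 alone of the 6 genes held a match, TGACCGATAGTAACCT, with 2 mismatches, on the strand opposite to the gene and starting 69 bases before the start site. Such a match occurred in 2.34% of all 35116 windows. A GC box, the letters bound by Sp1-type factors, was present in all 6 genes and in 48.3% of all genes with a window: 3 copies in ABCA1, 3 in MYLIP, 5 in LPCAT3 and 2 in APOE. The E-box CACGTG occurred once in ABCA1 and in 7.26% of windows, and the sterol element TCACNCCAC in none of the 6 genes and 1.13% of windows. The motifs searched did not overlap in the 4 windows shown, and a match is a description of letters only.

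Under TSA, ABCG1, MYLIP, APOE and LPCAT3 rose, and each was higher in all 3 lines. These 4 of 8 genes stand beside 34.6% of the 16929 genes tested that were called in either direction under TSA and 17.4% that were called higher; 28.3% of genes were higher in all 3 lines. The median log2 change of the 8 genes was 0.79, against 0.08 over all genes tested. Within single lines the 4 genes differed by 1.51 to 2.80 (log2 ratio of CPM + 1) in MHCC97H and A549 and by 0.18 to 1.05 in HCT116. For APOE the added 1 CPM makes the HCT116 value small: the plain log2 ratio was 2.23 in HCT116 (32 reads treated, 7 untreated; 95% counting interval 1.02 to 3.66), 1.73 in MHCC97H and 2.60 in A549.

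ABCG1 had 34.5, 13.7 and 3.19 CPM in TSA-treated MHCC97H, A549 and HCT116 (520, 223 and 53 reads), against 4.07, 1.17 and 1.64 CPM in untreated cells (58, 17 and 28 reads). The HCT116 TSA library lay below untreated MHCC97H, so the groups overlapped. The log2 change was 2.57 ± 0.75 (adjusted p = 0.0278), made up of 2.80, 2.76 and 0.67 within the 3 lines on the log2(CPM + 1) scale. Per length, ABCG1 thereby came to exceed ABCA1 in the TSA libraries of MHCC97H and A549, with ABCA1 to ABCG1 ratios of RPKM of 0.632 and 0.709 against 9.54 and 12.6 untreated; in HCT116 the ratio was 0.896 under TSA and 0.619 untreated.

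APOE had 24.3, 14.7 and 1.92 CPM under TSA in the same order of lines, against 7.30, 2.41 and 0.41 CPM untreated. HCT116 held least APOE in each condition, and its untreated value rests on 7 reads. The log2 change of 2.13 ± 0.28 (adjusted p = 0.00184) had the smallest standard error among the 4 genes.

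LPCAT3 had 272, 182 and 59.6 CPM under TSA, against 65.6, 49.8 and 52.6 CPM untreated. MHCC97H and A549 stood well above every untreated library, while TSA-treated HCT116 lay within the untreated range. The log2 change was 1.47 ± 0.34 (adjusted p = 0.0116).

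MYLIP had 23.9, 29.8 and 12.1 CPM under TSA, against 7.73, 6.001 and 9.32 CPM untreated. It was the only one of the 8 genes whose TSA libraries all lay above all untreated ones, which 11.7% of the genes tested did. The log2 change was 1.45 ± 0.35 (adjusted p = 0.0139).

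ABCA1 differed in direction among the lines under TSA. It had 72.9, 32.6 and 9.56 CPM in TSA-treated MHCC97H, A549 and HCT116, against 130.1, 49.4 and 3.40 CPM untreated. The 2 lines with high ABCA1 were lower under TSA and HCT116, with the least, was higher. The fitted log2 change was 0.12 ± 0.55 (adjusted p = 0.875). SCARB1 had 519.5, 132 and 36.7 CPM under TSA, against 348, 115 and 82.6 CPM untreated. Here MHCC97H was higher and HCT116 lower, and the log2 change was -0.07 ± 0.29 (adjusted p = 0.859).

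**Figure D2:**
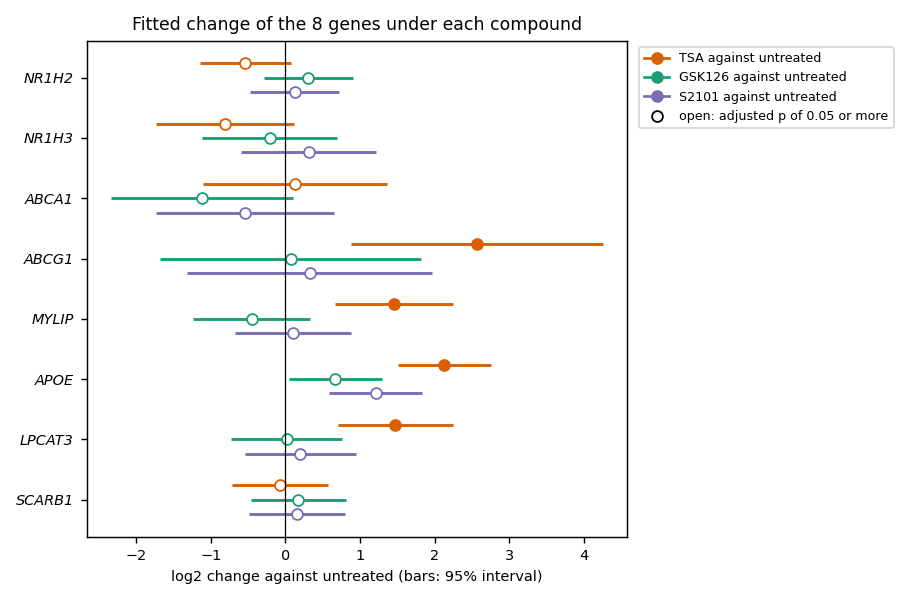
Fitted log2 change of the 8 genes under TSA, GSK126 and S2101 against untreated cells, with 95% intervals, from 1 model of 12 libraries; filled points have an adjusted p under 0.05. ABCG1, MYLIP, APOE and LPCAT3 under TSA are filled, and no gene is filled under GSK126 or S2101.

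Within single lines there is no test, and a change of at least 2-fold on the log2(CPM + 1) scale is described. In MHCC97H, ABCG1, MYLIP, APOE and LPCAT3 were at least 2-fold higher under TSA (15.4% of all genes tested were) and NR1H3 was at least 2-fold lower (14.5% of genes). In A549 the same 4 genes were at least 2-fold higher (16% of genes). In HCT116, ABCA1 and APOE were at least 2-fold higher (7.56% of genes) and SCARB1 was at least 2-fold lower (5.04% of genes). LPCAT3 differed by 0.18 in HCT116 against 2.04 in MHCC97H and 1.85 in A549, and MYLIP by 0.34 against 1.51 and 2.14; these differences between lines were not tested.

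**Figure D3:**
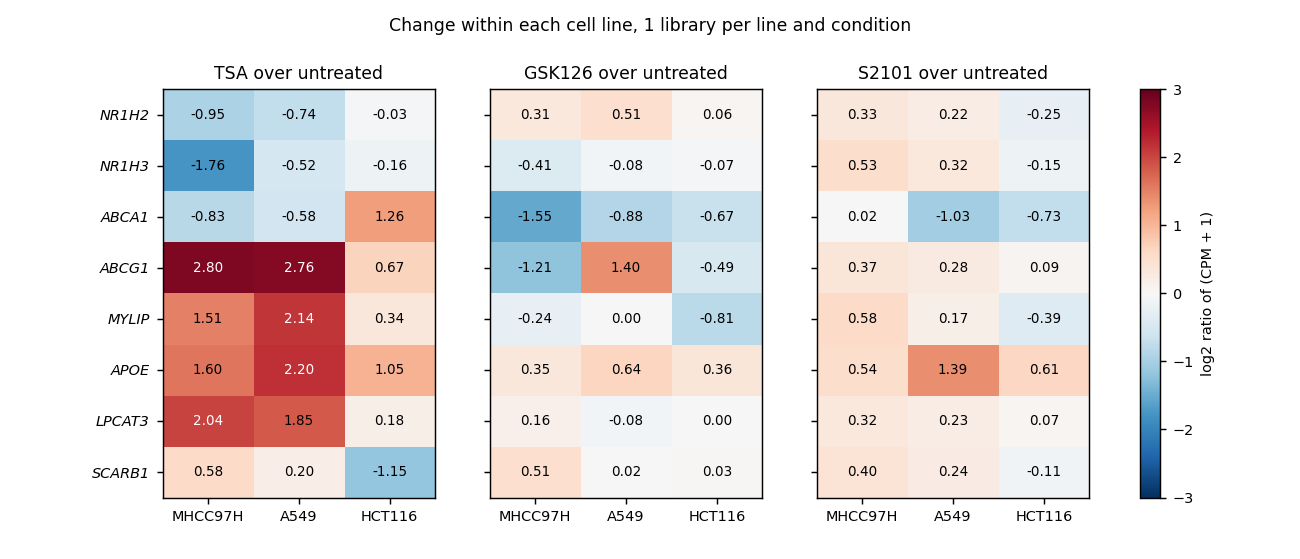
Change of each gene within each cell line, as the log2 ratio of CPM + 1 in the treated over the untreated library, with 1 library per line and condition. Under TSA the MHCC97H and A549 columns show ABCG1, MYLIP, APOE and LPCAT3 between 1.51 and 2.80, and the HCT116 column shows them between 0.18 and 1.05; APOE is near the added 1 CPM in HCT116, where its plain log2 ratio was 2.23.

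Leaving out MHCC97H or A549 ended calls under TSA while the changes stayed positive. Without MHCC97H, where 1152 genes were called in all, APOE alone of the 8 genes stayed under the threshold (2.47, adjusted p = 0.0353), with ABCG1 at 2.25, MYLIP at 1.41 and LPCAT3 at 1.17. Without A549, where 12 genes were called in all, none of the 8 passed, with ABCG1 at 2.30, APOE at 1.94 (adjusted p = 0.0621), LPCAT3 at 1.29 and MYLIP at 1.03. In a fit on the 6 TSA and untreated libraries alone 0 genes were called by edgeR, with 5064 at an unadjusted p under 0.05, while DESeq2 on all 12 libraries called 6739.

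None of the 8 genes passed the test under GSK126 or S2101. With edgeR 0 of 16929 genes (0%) were called under either compound, although 2809 genes under GSK126 and 852 under S2101 had an unadjusted p under 0.05, in each case with 1 of the 8 among them; DESeq2 called 1212 and 23 genes, none of the 8 included. The 3 comparisons with untreated cells share the untreated libraries.

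ABCA1 was lower under GSK126 in all 3 lines. It had 43.9, 26.3 and 1.77 CPM in GSK126-treated MHCC97H, A549 and HCT116, against 130.1, 49.4 and 3.40 CPM untreated. The level of each line stayed in the same order, so the groups overlapped. The log2 change of -1.12 ± 0.54 did not pass (adjusted p = 0.346). In a fit without the TSA libraries it did (-1.13 ± 0.32, adjusted p = 0.0459), beside 13% of 16201 genes called in that fit, and also in a fit on the 6 GSK126 and untreated libraries alone (adjusted p = 0.0449). In MHCC97H, ABCA1 and ABCG1 were at least 2-fold lower under GSK126, as were 0.219% of the genes tested.

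ABCG1 under GSK126 differed in direction among the lines, with 1.197, 4.72 and 0.88 CPM in MHCC97H, A549 and HCT116, against 4.07, 1.17 and 1.64 CPM untreated. It was at least 2-fold higher in A549, as were 6.47% of genes, and the change over the lines was 0.07 ± 0.78 (adjusted p = 0.988). MYLIP had 6.38, 6.01 and 4.90 CPM under GSK126, against 7.73, 6.001 and 9.32 CPM untreated (log2 change -0.45 ± 0.35, adjusted p = 0.600). The remaining genes had log2 changes of -0.21 (NR1H3) to 0.67 (APOE) under GSK126.

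In the fit of 12 libraries APOE had the lowest unadjusted p of the 8 genes under each of these compounds; without the TSA libraries ABCA1 had a lower one under GSK126 (0.00560 against 0.0356). APOE had 11.05, 7.92 and 1.15 CPM under S2101 and 9.58, 4.33 and 0.82 CPM under GSK126, against 7.30, 2.41 and 0.41 CPM untreated. Every treated library lay above the untreated library of its line. The log2 change was 1.21 ± 0.28 under S2101 (unadjusted p = 0.00166, adjusted p = 0.939) and 0.67 ± 0.28 under GSK126 (unadjusted p = 0.0386, adjusted p = 0.268). The S2101 value of A549 comes from the library that stood apart, and without that library the change was 1.09 ± 0.33.

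ABCA1 under S2101 had 132, 23.6 and 1.65 CPM, against 130.1, 49.4 and 3.40 CPM untreated. MHCC97H was nearly level and the other two lines were lower (log2 change -0.54 ± 0.53, adjusted p = 0.987; -0.31 ± 0.65, adjusted p = 1, without the A549 S2101 library). In the A549 S2101 library ABCA1 was at least 2-fold lower, as were 0.65% of genes, and APOE at least 2-fold higher, as were 2.72%. The 6 other genes had log2 changes of 0.10 (MYLIP) to 0.33 (ABCG1) under S2101, each with an adjusted p of 1.

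Set against the other compounds, TSA gave higher ABCG1, MYLIP, APOE and LPCAT3 than GSK126, by log2 2.50, 1.90, 1.46 and 1.45 (adjusted p = 0.0356, 0.00602, 0.00594 and 0.0141), and lower NR1H2 (-0.85, adjusted p = 0.0436). These 5 of 8 genes compare with 29% of all genes called. Against S2101, TSA gave higher values of the same 4 genes, by log2 2.24, 1.35, 0.92 and 1.28 (adjusted p = 0.0493, 0.0225, 0.0319 and 0.0247), where 26.6% of genes were called. Without the A549 S2101 library 0 of the 8 and 1926 genes in all passed against S2101, and without MHCC97H or without A549 none of the 8 passed in either comparison. The NR1H2 level under GSK126, 89.3, 78.8 and 23.1 CPM in MHCC97H, A549 and HCT116, was above its TSA level in MHCC97H and A549, while in HCT116 the direction turned with the scale (TSA 11.5 RPKM, GSK126 11.2 RPKM).

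The lines differed in these genes, and HCT116 had the least ABCA1, APOE, SCARB1 and NR1H2 in each condition. Untreated HCT116 had the most MYLIP (9.32 CPM, against 7.73 in MHCC97H and 6.001 in A549). It also had more ABCG1 (1.64 against 1.17 CPM) and LPCAT3 (52.6 against 49.8 CPM) than untreated A549. Over its 4 libraries MHCC97H had 94.6 ± 43.5 CPM of ABCA1, A549 33.0 ± 11.6 CPM and HCT116 4.09 ± 3.73 CPM (SD, n = 4 conditions). APOE averaged 13.0 ± 7.63, 7.33 ± 5.398 and 1.08 ± 0.64 CPM in MHCC97H, A549 and HCT116. SCARB1 averaged 456 ± 76.3, 125 ± 10.8 and 70.1 ± 22.5 CPM. These 3 genes were higher in MHCC97H than in A549 and in A549 than in HCT116 in each of the 4 conditions. NR1H2 averaged 72.3 ± 25.2, 57.7 ± 19.4 and 21.3 ± 2.04 CPM in the same order, with HCT116 below both other lines in each condition.

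MHCC97H against HCT116 gave 6 higher genes and none lower, beside 54.4% of all genes called. They were ABCA1 (log2 4.69, adjusted p = 0.000113), APOE (3.65, 8.03e-06), SCARB1 (2.72, 4.09e-05), NR1H2 (1.66, 0.000379), ABCG1 (1.85, 0.0367) and LPCAT3 (0.83, 0.0372). ABCG1 and LPCAT3 no longer passed without the untreated libraries, without the S2101 libraries or with no condition term (4 genes each); ABCG1 not without the TSA libraries (adjusted p = 0.109), and LPCAT3 not without the GSK126 libraries, on the compared libraries alone or without the A549 S2101 library (adjusted p = 0.0529). A549 against HCT116 gave 4 higher genes beside 43.7%: ABCA1 (3.18, adjusted p = 0.00107), APOE (2.67, 6.25e-05), NR1H2 (1.34, 0.00173) and SCARB1 (0.86, 0.0206). MHCC97H against A549 gave 3 beside 43%: SCARB1 (1.86, adjusted p = 0.000486), APOE (0.97, 0.00717) and ABCA1 (1.504, 0.0266); without the untreated libraries 1 of the 8 passed there. NR1H3 and MYLIP did not pass between any pair of lines. NR1H3 averaged 9.997 ± 6.06 CPM in MHCC97H, 7.88 ± 2.07 CPM in A549 and 10.6 ± 0.61 CPM in HCT116.

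Among the genes that work with LXRs, 8 of 11 tested partners and cofactors changed under TSA, 6 lower and 2 higher, with a list median of -0.73 against 0.08 over all genes; over all 16929 genes 34.6% were called, 2904 of them lower and 2947 higher. The 2 scaffold proteins of the corepressor complex TBL1XR1 (log2 change -1.54 ± 0.20, adjusted p = 0.00184) and TBL1X (-1.02 ± 0.17, adjusted p = 0.00331) fell, as did the corepressor NCOR1 (-0.73 ± 0.13, adjusted p = 0.00516) and the receptor partner RXRA (-1.40). TBL1XR1 averaged 69.2 ± 34.8 CPM under TSA and 189 ± 56.9 CPM untreated. The coactivator NCOA2 fell by 2.18 on the log2 scale (adjusted p = 0.00376), to 12.03 ± 5.84 CPM under TSA against 56.1 ± 14.6 CPM untreated. The complex's deacetylase HDAC3 (1.12) and its subunit GPS2 (0.98) rose.

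Of the other known LXR targets 9 of 15 were tested, and 3 rose and 1 fell under TSA. Over all genes tested, 34.6% were called in either direction and 17.4% were called higher. SREBF1, which encodes the regulator of fatty acid synthesis SREBP-1, averaged 1316.5 ± 1004 CPM under TSA and 183 ± 76.5 CPM untreated (log2 change 2.72 ± 0.67, adjusted p = 0.0147), with changes of 3.48 and 3.85 in MHCC97H and A549 and 0.11 in HCT116. PLTP, the phospholipid transfer protein, rose by 2.57 ± 0.77 (adjusted p = 0.0298) at low levels of 5.67 ± 2.21 CPM under TSA and 1.63 ± 1.79 CPM untreated. MLXIPL, the glucose-responsive factor ChREBP, rose by 2.38 ± 0.71 (adjusted p = 0.0299) while its HCT116 value was -0.48. APOC1, a neighbour of APOE in the apolipoprotein cluster of chromosome 19, fell by 1.85 on the log2 scale (adjusted p = 0.00297), opposite to APOE. It went from 27.1 to 9.47 CPM in MHCC97H and from 35.0 to 8.69 CPM in A549. In HCT116 APOC1 was barely detected, with 0.293 CPM untreated and 0.060 CPM under TSA. The list median was 0.20.

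Among the lipoprotein receptors that MYLIP marks for degradation, LRP8, the receptor of apolipoprotein E and reelin, fell by 2.34 on the log2 scale (adjusted p = 0.00307), to 27.4 ± 14.8 CPM under TSA against 137 ± 57.5 CPM untreated. CYP46A1, which makes the oxysterol 24-hydroxycholesterol, rose by 4.29 ± 0.88 (adjusted p = 0.00697), with 3.05 ± 2.43 CPM under TSA and 0.144 ± 0.129 CPM untreated, and was 1 of 3 tested enzymes of its list. Its untreated mean lay under the 3-read limit, so the size of this change is uncertain. Of 6 relatives of LPCAT3, LPCAT2 rose (1.29 ± 0.33, adjusted p = 0.0170) while MBOAT1 (-0.93, adjusted p = 0.0289) and LPCAT1 (-0.45, adjusted p = 0.0493) fell. The calls in these short lists stand beside 34.6% of all 16929 genes called under TSA in either direction and 17.4% called higher.

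Of 10 SREBP2 targets, which sense low cholesterol, 4 rose under TSA: INSIG1 (3.54 ± 0.70, adjusted p = 0.00648), which retains SREBPs in the endoplasmic reticulum, and the synthesis enzymes IDI1 (2.09), LSS (1.14) and MVD (0.84). Of 10 tested genes of HDL and sterol handling, ABCA7, a close relative of ABCA1, rose by 2.53 ± 0.37 (adjusted p = 0.00232) to 170 ± 24.2 CPM under TSA against 35.5 ± 24.6 CPM untreated, and NPC2 (0.98) and LCAT (0.90) also rose. The 4 of 10 and 3 of 10 genes that rose in these lists stand beside 17.4% of all genes. Without the A549 S2101 library LPCAT1 and LCAT no longer passed and the counts of the other lists were the same; without A549 no gene of any list passed, and without MHCC97H 5 did (TBL1X, TBL1XR1, NCOA2, APOC1 and ABCA7).

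**Figure D4:**
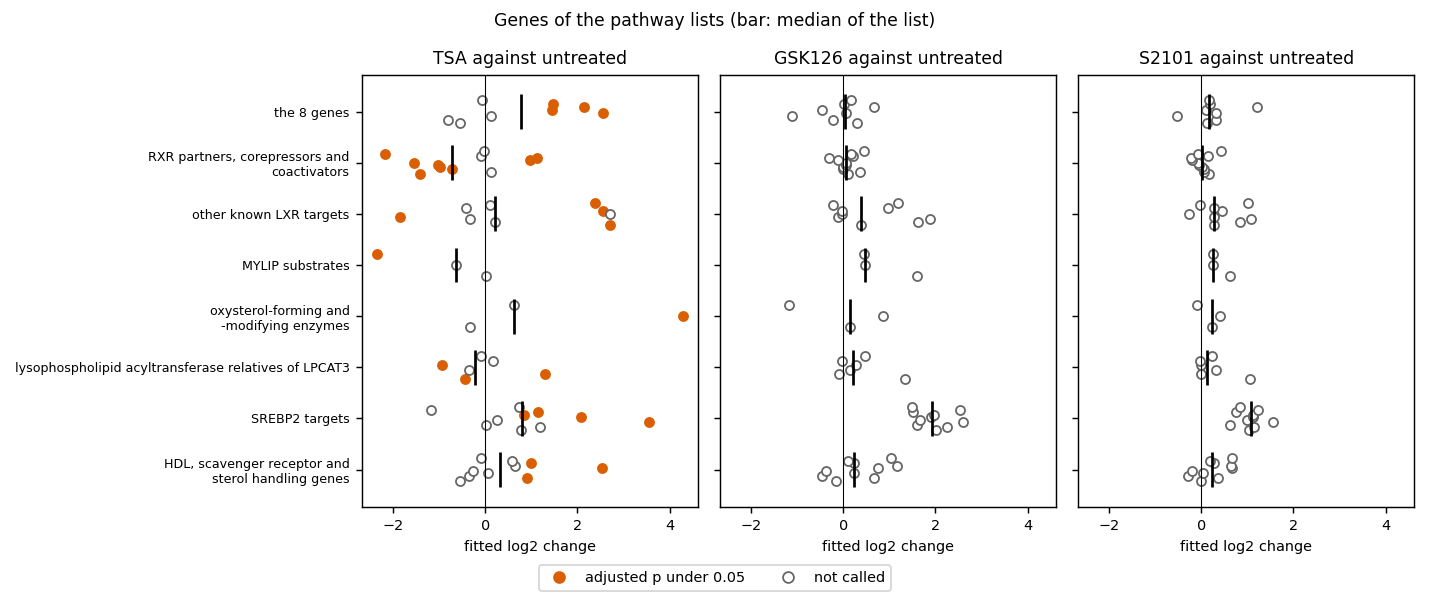
Fitted log2 change of each tested gene of the 8 and of 7 related lists under TSA, GSK126 and S2101 against untreated cells; filled points have an adjusted p under 0.05 and each bar is the list median. In the GSK126 panel all 10 SREBP2 targets lie to the right of 0, with a median of 1.93.

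Under GSK126 all 10 SREBP2 targets had a positive change, with a median of 1.93 against 0.01 over all genes, though none passed in the fit of 12 libraries. MVD averaged 135 ± 64.3 CPM under GSK126 and 33.9 ± 15.9 CPM untreated (log2 change 1.97 ± 0.25, adjusted p = 0.0605). Without the TSA libraries 10 of 10 passed with a median of 1.91, where 13% of 16201 genes were called (2114, of which 1040 higher). In that fit 3 of 8 LXR targets passed, FASN, SCD and MLXIPL, and 2 of 6 LPCAT3 relatives, LPCAT1 (adjusted p = 0.00697) and MBOAT7. Of 10 sterol handling genes 3 passed, SREBF2 (adjusted p = 0.00662), NPC1 and ABCA7. The coactivator NCOA3 (adjusted p = 0.0414) passed alone of 11 partners and cofactors. All of these genes were higher. In the fit of 12 libraries, where none of them passed, FASN, the fatty acid synthase, changed by 1.61 ± 0.29 (adjusted p = 0.0903), LPCAT1 by 1.34 ± 0.16 (adjusted p = 0.0605) and SREBF2, the gene of SREBP2, by 1.04 ± 0.17 (adjusted p = 0.0903). NCOA3 had 0.45 and SULT2B1 -1.18 under GSK126, with adjusted p of 0.235 and 0.548.

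Under S2101 the 10 SREBP2 targets also all had a positive change, with a median of 1.07 against 0.00 over all genes, and none passed with or without the TSA libraries. MVD changed by 1.13 ± 0.24, LPCAT1 by 1.06 ± 0.16, FASN by 0.84 ± 0.28, SREBF2 by 0.66 ± 0.17 and NCOA3 by 0.42 ± 0.17, each with an adjusted p of 0.939. CYP46A1 had 0.41 ± 1.05 (adjusted p = 1).

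After subtracting each line's mean, MYLIP and LPCAT3 had a Pearson r of 0.91 over the 12 libraries, ABCG1 and MYLIP 0.88, and NR1H2 and LPCAT3 -0.92, while ABCA1 and SCARB1 had -0.79. ABCA1 had an r of -0.07 with APOE and 0.18 with ABCG1. These are descriptions of 12 libraries that share lines and conditions, 28 pairs in all. Among 11957 genes with a mean of at least 5 CPM, the profile most like LPCAT3 was that of DHTKD1 (r 0.99), followed by CADM4 and ASMTL. The genes most like the others were LINC00909, MAU2 and C1RL for NR1H2 (r up to 0.99), DDRGK1 and CIDEC for NR1H3 (0.95), ZNF600, SIGLEC10 and THAP8 for ABCG1 (0.97), GMDS, USP30 and HLA-F (of a family of similar genes whose reads may be shared) for MYLIP (0.98), and BAIAP3, TDRKH and MMP17 for APOE (0.96). ABCA1 had the lowest best match, NUDT12 with an r of 0.89 before TRMT10A and ADCK2, and SCARB1 was most like GRB7 (0.95), RAB25 and KRTCAP3.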

How the data were processed

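Poly(A)-selected RNA of 12 libraries was measured. The authors deposited 1 table per library with raw read counts per gene, per the file headers, and RPKM values. RPKM were computed by the authors with the longest transcript as the gene's length, per the file headers. The submitters' processing notes name the builds GRCh38 and hg38. No source used here gives the aligner, counter or strand handling, so reads of overlapping and antisense genes cannot be told apart. Of 25648 genes 25647 are in all 12 libraries and were used. An entry that names no gene, found in 11 libraries, was left out. RPKM imply totals 0.18 to 0.223% above the summed counts. Of 26 symbols turned into dates 23 were restored.

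Counts were tested with edgeR 4.0.16 (R 4.3.3): quasi-likelihood F test, TMM scaling, filterByExpr (16929 genes kept), condition and cell line as terms over 12 libraries (6 residual degrees of freedom), Benjamini-Hochberg adjustment over all genes, called under 0.05. The cell line, from the labels, pairs treated and untreated libraries. Changes within a line compare log2 of TMM-scaled CPM plus 1. Alternatives were RLE factors, other filters, DESeq2 1.42.0, fits without the cell line or condition term, without a line or condition, without the A549 S2101 library and on the compared libraries alone; pathway lists were refitted without the TSA libraries, each line or the A549 S2101 library, chosen after seeing the data. Named genes were the 8, up to 4 called genes of each list and compound by smallest p (else the 1 with the smallest p), and the 3 most like each of the 8; RXRA, GPS2, HDAC3, SCD and genes named only as passing or losing a call are outside that rule, after their values were seen. Some genes that the rule names are not reported here. The members and lists were chosen with earlier results of these data known. Coordinates and promoter sequences are from RefSeq, GRCh38.p14.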

Additional observations from a re-analysis of the deposited data

Results flagged for a closer look

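In 4 cases a gene moved past 0.5 on the log2(CPM + 1) scale in opposite directions in 2 lines under the same compound; with 1 library per line and condition none of these differences was tested. ABCA1 under TSA changed by 1.26 in HCT116 and by -0.83 in MHCC97H, a difference of 2.09, and by -0.58 in A549, a difference of 1.85. SCARB1 under TSA changed by 0.58 in MHCC97H and by -1.15 in HCT116, a difference of 1.73. ABCG1 under GSK126 changed by 1.40 in A549 (73 reads treated, 17 untreated) and by -1.21 in MHCC97H (18 reads treated, 58 untreated), a difference of 2.60.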

How the results depend on the processing

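Over the fits, 561 of the alternative values for single genes kept their direction and side of the threshold, 80 kept the direction but no longer passed, 9 newly passed and 22 changed sign; within lines 204 values stayed within counting error and 12 moved beyond it. ABCG1, MYLIP, APOE and LPCAT3 under TSA kept their sign in every fit that tested them. The cause of the changes below was not tested.

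Without the replicate block (no cell line term), which ignores the pairing by line, 0 of the 8 and 257 genes passed under TSA, 0 and 14 against GSK126, and 0 and 0 against S2101; ABCA1 under TSA turned to -0.67 and SCARB1 to 0.34, ABCG1 under GSK126 to -0.0168, and TSA against S2101 to -0.45 for ABCA1 and 0.0352 for SCARB1. On the compared libraries alone 0 of the 8 and 0 genes passed for TSA against untreated, 0 and 164 against GSK126, 0 and 0 against S2101, 1 and 434 for GSK126 and 25 genes for S2101, with ABCA1 under TSA at -0.0487 and ABCG1 under GSK126 at -0.14. Under GSK126, 7 genes passed with RLE factors, 7 with no filter, 7 with at least 10 CPM in 3 libraries, 1212 with DESeq2 and 2114 without the TSA libraries, where 1 of the 8 passed; S2101 gave 23 genes with DESeq2. The filter of at least 10 CPM gave SCARB1 under TSA 0.10 and left 3 of the 8 against GSK126. Without the A549 S2101 library 0 of the 8 and 1926 genes passed for TSA against S2101, and ABCG1 under GSK126 was -0.0539.

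Leaving out a line gave 0 to 5 of the 8 and 12 to 6495 genes for TSA against untreated (1152 without MHCC97H), 0 to 4 and 0 to 5496 against GSK126 (1088 without MHCC97H), and 0 to 4 and 0 to 5144 against S2101 (17 without A549). ABCA1 ranged from -0.66 to 0.61 under TSA and from -0.25 to 1.63 against S2101; SCARB1 from -0.39 to 0.44, from -0.45 to 0.14 against GSK126 and from -0.47 to 0.11 against S2101. ABCG1 ranged from -1.26 to 0.65 and LPCAT3 from -0.00948 to 0.0921 under GSK126, and MYLIP from -0.16 to 0.46 under S2101. Between lines, leaving out a condition gave 4536 to 9188 genes for A549 against HCT116 (4893 with no condition term), with MYLIP from -0.13 to 0.56 and LPCAT3 from -0.0513 to 0.46; NR1H3 from -0.67 to 0.16 for MHCC97H against HCT116; and 1 to 4 of the 8 and 4203 to 9085 genes for MHCC97H against A549 (1 and 4694 with no condition term), with NR1H3 from -0.0220 to 0.48 and MYLIP from -0.0107 to 0.43. With at most 1 mismatch, 0 of the 6 genes with a promoter window held an LXR element.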
